A study of Mus musculus with 12 samples.

Results

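Of 117835 regions of open chromatin counted in macrophages from mouse brain tumours, 6556 (5.56%) carried a peak called in microglia without lipid load and in none of the other 3 cell groups, and these 6556 regions are described here. They were chosen by their identifiers, which name the group in which a peak had been called. Each of the 6556 held 1 kind of microglial identifier, a single-set MG peak, and 0 held an MG consensus peak. The choice therefore rests on the same reads that are counted here. Every difference between MG and another group, or among the MG libraries, is given as a description without a test.

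The libraries are ATAC-seq, in which a transposase cuts accessible DNA and the cut fragments are sequenced, from nuclei of flow-sorted cells of brain tumours. All mice carried the Ink4a/Arf knockout with PDGFB expression, in a model driven in Nestin-positive progenitor cells. There were 4 groups of 3 libraries: monocyte-derived macrophages (MDM), lipid-laden MDM (LL-MDM), microglia (MG) and lipid-laden microglia (LL-MG), all from the same tumour model. The age of the mice was not given in the sources used here. No label that could be relied on ties the libraries of a group to separate animals, so a p-value here reflects only how much these libraries vary.

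Libraries were assigned to groups by their descriptions, and these match the headings of the count columns. For 8 of 12 samples the title names another group than the description. The titles call MG 1 and MG 3 lipid-laden MDM and MG 2 lipid-laden microglia. Counts over Sall1, a transcription factor gene that marks microglia, were 77.8, 47.9 and 58.3 CPM (counts scaled to a common library total) in the libraries described as MG and 67.4, 87.5 and 67.9 CPM in LL-MG, and they ranged from 6.51 to 12.4 CPM over LL-MDM and from 0.513 to 1.09 CPM over MDM. These levels separate the libraries by the lineage in the descriptions. MG and LL-MG overlapped, so the levels do not show which microglia libraries were lipid-laden. Every comparison of MG with LL-MG takes that status from the descriptions, unchecked. Sall3 followed Sall1, at 23.3 to 41.1 CPM in MG and 7.97 to 11.3 CPM in LL-MDM. Not every microglia gene did so. Tmem119 read 54.5, 44.8 and 53.2 CPM in MG and 54.8 to 59.7 CPM in LL-MG, but 70.7 to 84.2 CPM in LL-MDM. A library held between 1162969 and 18938222 counts, and the 3 libraries of a group together held 14025505 in MG, 7183102 in LL-MG, 11603549 in LL-MDM and 39495852 in MDM.

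Microglia settle the brain early in development and maintain themselves there, while MDM enter tumours from the blood. In both, PU.1 keeps macrophage enhancers open, and microglia add enhancers that depend on TGF-beta signals and Sall1. Lipid-laden macrophages in brain tumours are cells loaded with lipid, such as that of myelin debris. A region called in 1 population only is often a distal enhancer, a stretch of regulatory DNA away from gene starts, and a bulk library also takes up open DNA of any other cell type in the sort. In bulk libraries, more cells of a type and more open DNA per cell cannot be told apart.

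Only promoter sequences are shown, since RefSeq windows (GRCm38.p6, 250 bases before to 50 after a gene's start) were the sequence at hand. Of the 6556 regions, 251 overlapped 260 such windows, so the sequences shown stand for a small part of the set. Shown here are the stretches, before the start site and inside the called region, of the 8 protein-coding promoters with the highest mean MG level. Promoters whose stretch was under 30 bases were left out before this ranking. Mcpt8 is added as a listed marker gene. Bcan, a listed progenitor and tumour gene, qualified in the same way but is not shown. Its region read 3.71, 2.40 and 2.20 CPM in MG 1, MG 2 and MG 3 and 1.88 to 6.17 CPM in LL-MG. Each is written 5′ to 3′ on the gene's strand, with capitals for matches to one of 12 short motifs on either strand (TGANTCA for AP-1, TTGCNNAA for C/EBP and TGTGGT for RUNX among them). Gzmb encodes a granule protease, Adcy10 a soluble adenylyl cyclase, Lime1 a membrane adaptor, Aqp9 a glycerol and water channel, Il13 a type 2 cytokine and Mcpt8 a basophil granule protease. Tcirg1 encodes a subunit of the proton pump of lysosomes.

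Gzmb, chr14:56262335-56262510, minus strand: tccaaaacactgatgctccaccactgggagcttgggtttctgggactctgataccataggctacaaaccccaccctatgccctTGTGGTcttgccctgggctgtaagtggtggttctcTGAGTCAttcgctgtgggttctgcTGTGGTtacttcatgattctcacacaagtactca
Adcy10, chr1:165484933-165485096, plus strand: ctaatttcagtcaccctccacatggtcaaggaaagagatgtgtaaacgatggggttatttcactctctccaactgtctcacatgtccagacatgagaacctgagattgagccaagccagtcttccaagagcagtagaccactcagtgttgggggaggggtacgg
Lime1, chr2:181381176-181381234, plus strand: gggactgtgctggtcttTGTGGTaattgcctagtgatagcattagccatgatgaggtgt
Aqp9, chr9:71163483-71163539, minus strand: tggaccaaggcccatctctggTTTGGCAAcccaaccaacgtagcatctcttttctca
Il13, chr11:53634703-53634756, minus strand: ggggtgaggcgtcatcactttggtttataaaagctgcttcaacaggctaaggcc
Mcpt8, chr14:56085198-56085447, minus strand: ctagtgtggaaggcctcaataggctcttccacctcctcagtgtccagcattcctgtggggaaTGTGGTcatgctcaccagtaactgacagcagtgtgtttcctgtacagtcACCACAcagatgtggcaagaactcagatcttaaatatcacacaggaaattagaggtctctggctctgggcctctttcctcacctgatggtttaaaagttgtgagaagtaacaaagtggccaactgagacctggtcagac
Dmwd, chr7:19075988-19076178, plus strand: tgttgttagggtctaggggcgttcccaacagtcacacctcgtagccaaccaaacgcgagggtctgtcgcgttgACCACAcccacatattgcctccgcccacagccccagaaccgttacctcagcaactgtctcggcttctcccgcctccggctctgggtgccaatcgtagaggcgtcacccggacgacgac
Tcirg1, chr19:3907311-3907383, minus strand: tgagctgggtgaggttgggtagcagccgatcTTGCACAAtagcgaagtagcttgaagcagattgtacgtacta
Unkl, chr17:25188705-25188844, plus strand: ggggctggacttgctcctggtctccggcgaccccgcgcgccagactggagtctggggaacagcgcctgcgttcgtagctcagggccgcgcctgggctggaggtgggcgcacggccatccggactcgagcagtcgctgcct

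These promoters fell into contrasting patterns among the 3 MG libraries. At Gzmb the level was 1.85 CPM in MG 1, 25.4 in MG 2 and 14.4 in MG 3, with 0.363 to 0.905 CPM in LL-MG and at most 3.54 CPM in any MDM or LL-MDM library. Il13 read 1.48, 17.8 and 8.78 CPM in MG 1, MG 2 and MG 3 and at most 0.695 CPM in the other 9 libraries. Mcpt8 had 2, 85 and 26 counts in the MG libraries, which are 0.741, 14.6 and 6.34 CPM. In all 3 of these MG 2 was highest and MG 3 lay between, and MG 1 was at most 1.85 CPM. The same order held at Adcy10 (1.85, 24.9 and 12.0 CPM), Lime1 (1.85, 20.9 and 12.2 CPM) and Aqp9 (1.11, 17.7 and 10.0 CPM). Tcirg1 differed from them, with 14.5, 11.1 and 13.4 CPM in MG and 21.3, 16.5 and 17.1 CPM in LL-MG, so that every LL-MG library, although uncalled there, lay above every MG library. Dmwd (6.30, 13.04 and 10.49 CPM in MG, 3.17 to 4.72 CPM in LL-MG) and Unkl (9.27, 11.0 and 8.29 CPM in MG, 4.70 to 6.79 CPM in LL-MG) were less uneven.

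As a set, the 6556 regions held 1.42%, 3.51% and 2.47% of the region counts of MG 1, MG 2 and MG 3, a mean of 2.47% ± 1.04 (SD, n = 3). The share was 1.11% ± 0.0344 in LL-MG, 0.717% ± 0.0202 in LL-MDM and 0.443% ± 0.0486 in MDM (SD, n = 3 each). Every MG library lay above every library of the other groups, but MG 1 stood closer to LL-MG, whose highest library held 1.15%, than to MG 2. The highest MG library held 2.47 times the share of the lowest, compared with 1.06 times in LL-MG, 1.05 times in LL-MDM and 1.23 times in MDM. For the libraries that the titles name as MG the mean share was 0.63%, an alternative added after the data were seen.

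**Figure D1:**
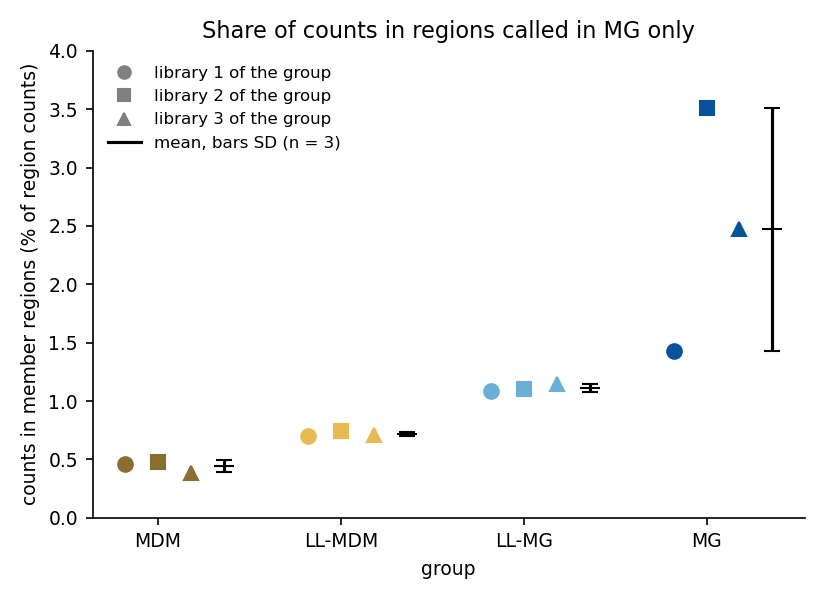
Share of each library's region counts (y axis, percent) that fell in the 6556 regions called in MG only, by group (x axis), with 1 symbol per library and the mean with SD beside it. The 3 MG libraries spread from 1.42% to 3.51%, while the libraries of each other group lie close together.

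Levels in single regions were low. The median region had 4, 21 and 11 counts in MG 1, MG 2 and MG 3, and 604 regions had no count at all in MG 1, against 6 in MG 2 and 15 in MG 3. The median level was 1.48, 3.60 and 2.68 CPM in these libraries. It was 0.905 to 1.09 CPM in LL-MG, 0.685 to 0.886 CPM in LL-MDM and, in MDM, 0.342 to 0.489 CPM. The mean MG level had a median over regions of 2.84 CPM, with 5% of regions below 1.02 CPM and 5% above 11.7 CPM, and the highest single region reached 76.6 CPM.

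Over the regions, the median log2 difference of MG from the mean of the other groups was 1.32. It was 1.74 from MDM, 1.41 from LL-MDM and 0.86 from LL-MG. Taken by library, the median difference from LL-MG was 0.42 for MG 1, 1.34 for MG 2 and 1.02 for MG 3. In 1326 regions (20.2%) all 3 MG libraries lay above all 9 others, where 2.7% of all 117835 regions did so; since this contrast chose the regions, nothing is read from the comparison. At the other end, 2746 regions (41.9%) had a mean MG level below that of the highest single library outside MG. Which peak caller and threshold set the calls was not given in the sources used here.

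MG libraries lay farther apart in these regions than in the sets called in more groups. The highest MG library exceeded the lowest by a median log2 value of 1.55 (2.92-fold), against 0.81 in the 2305 regions called in both microglia groups only and 0.51 in the 32545 regions called in all 4 groups. In the same 6556 regions the spread was 1.03 among LL-MG, 1.14 among LL-MDM and 0.56 among MDM libraries, whose depths differ. MG 2 was the highest of the 3 MG libraries in 3932 regions (60.0%), MG 1 in 1628 (24.8%) and MG 3 in 996 (15.2%). The order MG 2, MG 3, MG 1 held in 3586 regions (54.7%), and MG 3 lay in the middle in 4520 (68.9%). In regions called in both microglia groups only, MG 1 was highest in 64.8% and MG 2 in 11.8%.

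The difference between MG 2 and MG 1 had 2 humps. Counted in steps of 0.5 on the log2 scale, 732 regions lay between -0.5 and 0, only 471 between 1 and 1.5, and 720 between 2.5 and 3. Regions called in both microglia groups only had a single hump below 0. Among the 2974 regions with at least 30 counts in MG 1 and MG 2 together, 2170 (73.0%) had MG 2 at least 2-fold above MG 1, and 350 (11.8%) lay between 0.5 and 1.5, against 14.4% of all members. MG 2 is the deeper of the 2 libraries, so that minimum admits regions largely through MG 2 and in part sets the larger share. After thinning to equal depth, at 1162969 counts a library, 41.3% of regions had MG 2 at least 2-fold above MG 1, and 23.7% lay between 0.5 and 1.5. The median difference fell from 1.18 to 0.58, where the thinned libraries were scaled by their totals alone. The thinned differences were not counted in steps, so whether the humps remain at that depth was not tested.

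**Figure D2:**
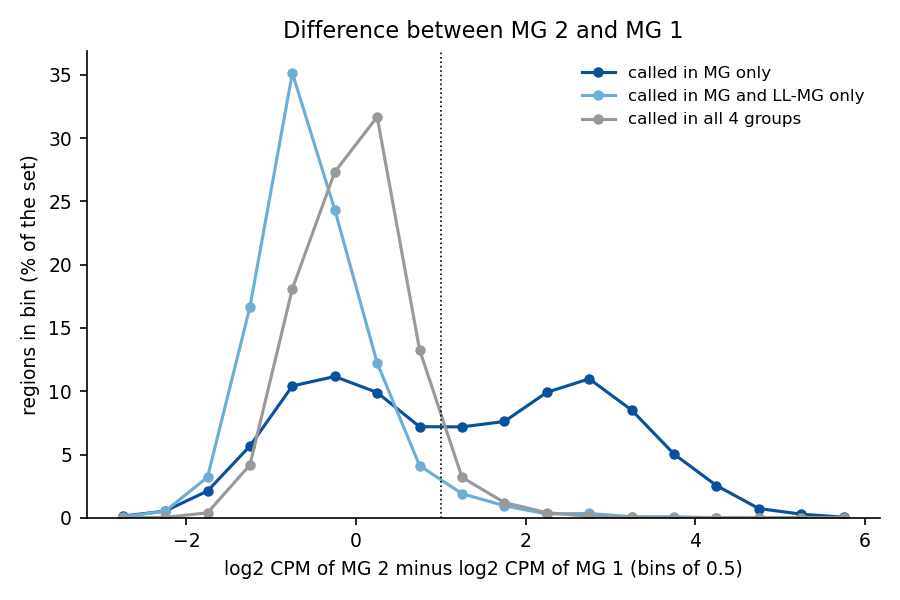
Difference in log2 CPM between MG 2 and MG 1 (x axis, bins of 0.5) against the percent of regions in each bin (y axis), for regions called in MG only, in both microglia groups only and in all 4 groups. The regions called in MG only have 1 hump near 0 and a second hump between 2 and 3.5, and the dotted line marks a difference of 1.

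For description, and chosen after the values were seen, the regions were divided at a 2-fold excess of MG 2 over MG 1. The 3465 regions (52.9%) above it averaged 1.25 CPM in MG 1, 9.52 in MG 2 and 5.15 in MG 3, and 0.791 to 0.887 CPM in the LL-MG libraries. LL-MDM averaged 0.844 to 0.880 CPM there and MDM 0.540 to 0.637 CPM. LL-MG was thus close to LL-MDM in these regions, and MG 1 was nearer to both than to MG 3. MG 3 exceeded the LL-MG mean by a median log2 value of 2.38, and by at least 1 in 86.7% of these regions. MG 3 did not enter the division, but it is among the libraries whose calls chose the regions, so this is a description too.

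In the other 3091 regions the averages were 3.31, 2.73 and 2.81 CPM in MG 1, MG 2 and MG 3 and 2.71, 2.67 and 2.74 CPM in LL-MG. The LL-MDM libraries averaged 1.36 to 1.51 CPM and MDM 0.753 to 0.888 CPM. Here LL-MG was as high as MG 2 and MG 3, although no peak had been called in LL-MG. The median log2 difference of MG 3 from LL-MG was 0.11. The combined depth was 7183102 counts in LL-MG against 14025505 in MG, and the part of depth in the missing LL-MG calls was not tested.

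**Figure D3:**
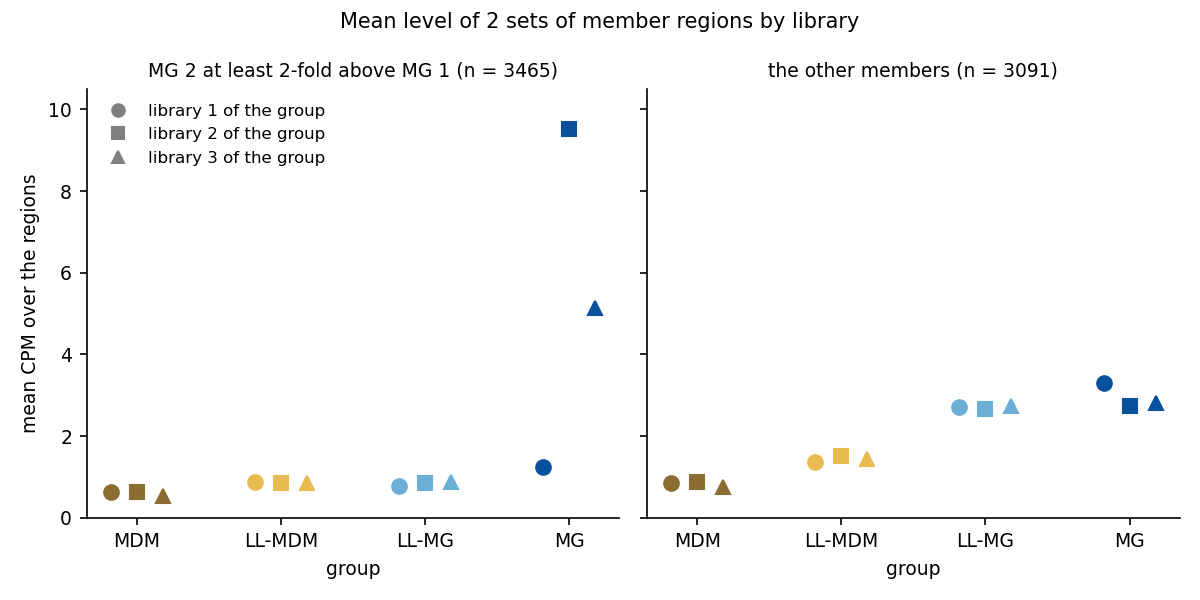
Mean CPM (y axis) by library and group (x axis) over the 3465 regions with MG 2 at least 2-fold above MG 1 (left) and over the other 3091 regions (right), 1 symbol per library. On the left MG 2 and MG 3 stand alone at 9.52 and 5.15 CPM, and on the right the LL-MG libraries at 2.67 to 2.74 CPM overlap MG.

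The 2 sets also differed in where their regions lay. The median width was 123 bp where MG 2 was high and 81 bp in the others, against 179 bp over all regions and 388 bp in those called in all 4 groups. Promoter windows were touched by 2.42% of the former and 5.67% of the latter, where 9.85% of all regions touched one. The nearest region outside the set lay within 500 bp, from midpoint to midpoint, for 13.7% and 37.2%. Gene spans held 55.9% and 65.7%. The gene table gives spans only, so exons, introns and UTRs were not told apart.

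Of 12 short motifs sought in the promoter windows, 4 differed most between the sets. The AP-1 motif TGANTCA was in 15 of 81 windows (18.5%) that overlapped only MG 2-high regions, and in 2 of 177 (1.13%) that overlapped only the others. Over all 32817 windows 7.81% held it, and 5.73% of the 13128 windows with a region outside the set. C/EBP (TTGCNNAA) matched 23.5% and 7.91% of the same 2 sets, against 10.8% of all windows, and RUNX (TGTGGT) 22 of 81 and 23 of 177 windows, against 16.8%. The GC box GGGGCGGGG, typical of broadly used promoters, went the other way, with 4.94% and 23.7%, against 11.4% of all windows. Windows with a region outside the set held C/EBP in 8.18%, RUNX in 13.1% and the GC box in 22.1%. For C/EBP, RUNX and the GC box, the windows of the other members were thus close to such windows. Those of the MG 2-high regions lay farther from them. The core PU.1 letters GAGGAAGT were rare in both, at 2.47% and 1.13%, against 3.20% of all windows and 3.82% with a region outside the set. The E-box CAGCTG was about equally frequent in the 2 sets, at 22.2% and 23.2%. It was in 16.3% of all windows and 14.9% of those with a region outside the set. The IRF pair GAAANNGAA was at 3.70% and 5.08%, against 8.55% and 6.90% of the same 2 backgrounds. The SOX, CTCF, MEF2, SMAD and MiT/TFE motifs were in at most 2 windows of either set. The letters were sought on both strands, and matches to different motifs may overlap.

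Among the members with at least 10 counts in each MG library, 1048 in all, the highest by their lowest MG library were distal or intragenic regions with both patterns. A region in Slco2b1, an organic anion transporter gene expressed by microglia (chr7:99671187-99671906), read 20.4, 134 and 75.4 CPM in MG 1, MG 2 and MG 3. It read 9.95, 7.05 and 8.35 CPM in LL-MG and 1.03 to 3.48 CPM in LL-MDM and MDM. All 3 MG libraries lay above all others there. At chr11:83665313-83665516, 630 bp from the chemokine gene Ccl4, the levels were 16.3, 41.3 and 26.1 CPM in MG, 14.0, 11.8 and 11.6 in LL-MG, 2.50 to 4.43 in LL-MDM and 0.171 to 0.543 in MDM.

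The region in Tjp1, which encodes the tight junction protein ZO-1 (chr7:65370793-65371126), was even across MG, at 16.3, 13.9 and 18.05 CPM. LL-MG stood at 14.9, 16.0 and 17.1 CPM, and MG and LL-MG overlapped. Beside Atf3, a stress-induced transcription factor gene, a region at chr1:191183849-191183943 read 15.2, 16.8 and 13.7 CPM in MG and 10.4, 12.2 and 13.8 CPM in LL-MG, with overlap at MG 3. Cdk6, a cell cycle kinase gene, held a region at chr5:3491909-3492172 with 15.6, 33.6 and 23.7 CPM in MG and 7.62 to 10.8 CPM in LL-MG. Sdc4, a heparan sulphate proteoglycan gene, and Sema4d, a semaphorin gene, held regions at 13.3, 24.2 and 17.8 CPM and at 13.3, 46.3 and 31.5 CPM in MG. LL-MG overlapped MG in both, with 13.6 CPM in LL-MG 1 at Sdc4 and 22.6 CPM in LL-MG 2 at Sema4d.

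Single regions in that group were not always highest in MG. Near Hook2, a microtubule linker gene, the region at chr8:84984934-84985038 read 18.2, 17.5 and 19.5 CPM in MG, but 26.1 to 27.7 in LL-MG and 18.6 to 26.0 in LL-MDM. The region nearest Frmd8 at chr19:5845121-5845256 read 20.8, 37.0 and 33.7 CPM in MG and 26.5 CPM in MDM 3, so the groups overlapped.

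The regions in which 1 MG library stood most above the other 2 were picked for that excess, so their imbalance follows from the choice. At least 20 counts in that library were required, which a deeper library such as MG 2 meets more easily. For MG 2, regions nearest Fut8, Skap1 and in Kat6b had 32, 79 and 38 counts in MG 2, 4, 14 and 6 in MG 3 and 0 in MG 1. The corresponding regions for MG 1 lay in Jakmip3, Scpep1 and Nckap5l. In Nckap5l (chr15:99436182-99436316) the level was 12.6, 3.95 and 3.17 CPM in MG and 9.05, 7.05 and 11.3 CPM in LL-MG, so MG 1 resembled LL-MG. For MG 3 they lay in B3galt1, Myo18b and Gm38523, with 21 to 24 counts in MG 3 and a log2 excess of 1.17 to 1.32, below the 2.67 to 2.80 of MG 2.

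Regions were spread over many genes. Of 16304 protein-coding genes with a region in their span or within 5 kb, 3297 (20.2%) had a member region, and 2324 of those had 1. The genes with the most were Slc24a3, a sodium-calcium exchanger gene (11 of 37 regions), Specc1 (11 of 53), Nck2, an adaptor gene of receptor signalling (10 of 27), and Pde4d, a cyclic AMP phosphodiesterase gene (10 of 94). Eefsec (9 of 24), Igf1r, the IGF-1 receptor gene (9 of 42), Plcb4 (8 of 22), Rora, a nuclear receptor gene (8 of 28), Myo1d (8 of 30) and Tec, a tyrosine kinase gene (8 of 41), followed. At Specc1 the members summed to 34.1, 208 and 104 CPM in MG and 16.5 to 17.8 CPM in LL-MG. All 10 members in Nck2 were MG 2-high. Their summed level was 8.16, 137 and 62.7 CPM in MG, 2.26 to 3.29 CPM in LL-MG, 7.09 to 10.6 in LL-MDM and 3.93 to 5.77 in MDM. The 8 in Rora, also all MG 2-high, summed to 12.2, 109 and 57.8 CPM in MG and to 2.35 to 6.17 CPM in LL-MG. In Myo1d, where 4 of 8 were MG 2-high, the sums were 10.0, 23.7 and 21.0 CPM in MG and 11.8 to 15.2 CPM in LL-MG, so that MG 1 was below LL-MG.

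Eefsec lies beside Gata2, a transcription factor gene of mast cells, basophils and blood progenitors. Within 250 kb of Gata2 (chr6:88193891-88207032), 19 of 80 regions (23.8%) were members, and 15 of the 19 were MG 2-high. Their summed level was 70.1, 447 and 238 CPM in MG 1, MG 2 and MG 3, 22.2 to 32.7 CPM in LL-MG, 15.9 to 28.4 in LL-MDM and 10.8 to 13.3 in MDM. The strongest, at chr6:88230270-88230864, 23.2 kb from Gata2 and named Dnajb8 by its nearest gene, read 13.3, 102 and 49.3 CPM in MG and at most 2.74 CPM elsewhere. The 61 other regions summed to 472, 810 and 631 CPM in MG and to 480 to 487 CPM in LL-MG, so the order MG 2, MG 3, MG 1 was present outside the member regions too.

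Of the 19 gene lists examined, that of mast cells and basophils had the largest share of its regions among the members, 9 of 42 (21.4%), where 5.51% of all regions in or near a gene were members. All 9 were MG 2-high. They lay at Cpa3, the mast cell carboxypeptidase (3 of its 3 regions), Mcpt8 (2 of 2), Ms4a2, the beta chain of the high-affinity IgE receptor (2 of 4), and Hdc, the enzyme that makes histamine (2 of 12). Cpa3 summed to 2.97, 24.7 and 10.49 CPM in MG 1, MG 2 and MG 3, 0.940 to 1.81 CPM in LL-MG, 0.417 to 3.54 in LL-MDM and 0.584 to 1.09 in MDM. Ms4a2 summed to 8.16, 48.5 and 23.2 CPM in MG and to 2.82 to 5.48 CPM in the lipid-laden groups. Hdc summed to 50.4, 250.1 and 134 CPM in MG, and its 10 regions outside the set alone to 47.4, 190 and 109 CPM.

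The whole list, 7 of 8 genes with a region, summed to 124 CPM in MG 1, 515 in MG 2 and 291 in MG 3, against 83.7 to 103 in LL-MG, 100.4 to 123 in LL-MDM and 172 to 182 in MDM. Without the member regions the MG range was 114 to 370 CPM. MG 2 was the highest MG library at 6 of the 7 genes, all but Cma1, which read 0.858 to 2.22 CPM in MG. Kit, the stem cell factor receptor, had 0 member regions and read 7.78, 27.3 and 18.3 CPM in MG but 98.1 to 101.2 CPM in MDM, and Fcer1a had no region. A further 14 basophil and type 2 genes were picked after the values were seen, so their order is a description and adds no support. Of their 79 regions, 21 were members. The sum was 405, 1174 and 752 CPM in MG 1, MG 2 and MG 3 against 344 to 369 CPM in LL-MG. Il5 and Gata1 among them had no region. Ccr3 had 0 member regions and another order, with 7.78, 8.06 and 6.34 CPM in MG. The part of mast cells and basophils in the member regions was not tested.

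**Figure D4:**
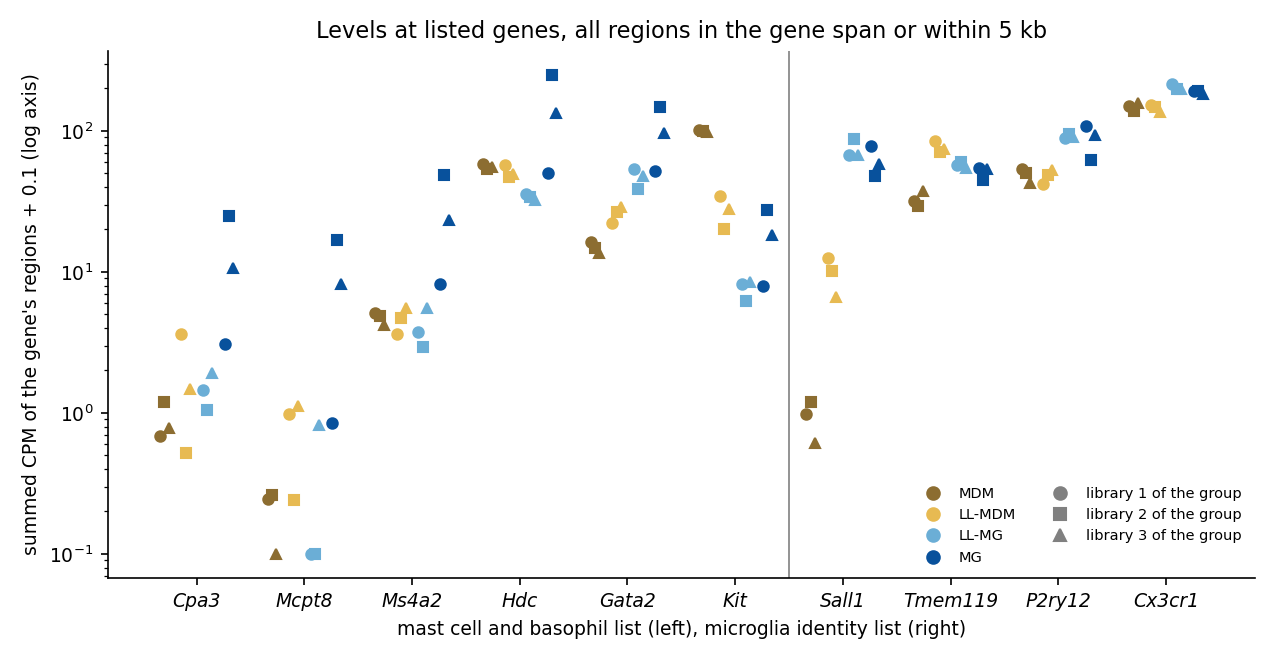
Summed CPM plus 0.1 (y axis, log scale) of all regions in the span or within 5 kb of mast cell and basophil genes (left) and microglia genes (right), 1 symbol per library, coloured by group. Cpa3, Mcpt8, Ms4a2, Hdc and Gata2 are highest in MG 2 and next in MG 3, and Kit is highest in MDM. Sall1 and P2ry12 are lower in MG 2 than in the other MG libraries, and Tmem119 is highest in LL-MDM.

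Of the 20 microglia identity genes, 15 were lowest in MG 2 among the MG libraries and 4 were highest there, Smad3, Crybb1 and Gpr34 among the latter. P2ry12, a purinergic receptor gene of homeostatic microglia, read 109, 62.3 and 92.7 CPM in MG 1, MG 2 and MG 3 and 89.6 to 95.4 CPM in LL-MG, and Sall1 read 77.8, 47.9 and 58.3 CPM in MG. Smad3 read 500.1, 660 and 568 CPM in MG 1, MG 2 and MG 3. Of the 170 regions at this list, 11 (6.47%) were members, and 5 of the 11 were MG 2-high. The summed list was 2220, 2097 and 2108 CPM in MG 1, MG 2 and MG 3, 2102 to 2271 in LL-MG, 1635 to 1730 in LL-MDM and 1399 to 1518 in MDM. At Crybb1, a member region (chr5:112259877-112260140) had 1.85, 25.9 and 13.7 CPM in MG and 0.905 to 1.09 CPM in LL-MG.

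Genes of T and NK cells contributed 3 of 31 regions (9.68%), all MG 2-high. Tbx21, which encodes the transcription factor T-bet, held a region (chr11:97104124-97104433) at 5.56, 57.1 and 25.6 CPM in MG and 0.657 to 3.54 CPM elsewhere. The summed list was 177 to 316 CPM in MG, 140 to 158 in LL-MG, 141 to 161 in LL-MDM and 175 to 190 in MDM. MG 2 was the highest MG library at 4 of its 8 genes with a region, MG 1 at 3 and MG 3 at 1. B cell genes contributed 0 of 30, with 138 to 148 CPM in MG and 131 to 142 CPM in LL-MG. Border-associated macrophage genes contributed 6 of 65 (9.23%), all MG 2-high, among them a region near the platelet factor gene Pf4 with 1.48, 18.7 and 8.78 CPM in MG, and that list summed to 213 to 242 CPM in MG and 222 to 233 CPM in LL-MG.

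The TGF-beta and SMAD list, which holds receptors, transducers and inhibitors of the wider TGF-beta family, had 17 of 158 regions (10.8%) among the members. Of these, 7 lay at the receptor gene Tgfbr2, and 9 of the 17 were MG 2-high. A region in Smad3 (chr9:63703444-63703692), which encodes a signal transducer of the pathway, read 6.30, 33.4 and 21.0 CPM in MG and 14.0, 10.8 and 7.26 CPM in LL-MG, so that MG 1 lay below all LL-MG libraries. Lipid-associated genes had 9 of 147 (6.12%). Near Ctsd, the cathepsin D gene, a region at chr7:142375587-142375728 read 13.3, 11.3 and 10.0 CPM in MG, 8.93 to 9.95 in LL-MG, 3.76 to 5.14 in LL-MDM and 0.657 to 1.09 in MDM. Antigen presentation genes had 1 of 131 (0.763%), a region in Patl2 near B2m. Identity genes of monocyte-derived macrophages had 3 of 137 (2.19%), all MG 2-high. That list summed to 774, 1080 and 935 CPM in MG 1, MG 2 and MG 3, against 823 to 880 CPM in LL-MG and 1449 to 1550 CPM in MDM, and 10 of its 16 genes with a region were highest in MG 2. Its order among the MG libraries is that of the MG 2-high regions, and the part of such cells was not tested. Near the chemokine receptor gene Ccr2 a member region read 1.11, 25.2 and 13.7 CPM in MG and at most 2.93 CPM elsewhere.

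The other lists had shares between 1.61% and 7.84%. These were genes of oligodendrocytes (5 of 65), of their progenitors and the tumour (4 of 51), astrocytes (4 of 62), endothelium (4 of 73), dendritic cells (4 of 74), neurons (2 of 60), pericytes (1 of 27) and neutrophils (1 of 22), inflammatory chemokines and NF-kB (4 of 81) and the interferon response (1 of 62). None of the 4 regions at progenitor and tumour genes was MG 2-high. That list summed to 451, 290 and 328 CPM in MG 1, MG 2 and MG 3 and to 483 to 509 CPM in LL-MG, against 179 to 236 CPM over both MDM groups, and the neuron list to at most 234 CPM in MG and 270 to 297 CPM in LL-MG, against 110 to 134 CPM over both MDM groups. The part of these cells in the member regions was not tested.

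The 2 comparisons that did not involve MG set groups against each other that were both uncalled in all 6556 regions: LL-MG against LL-MDM, and LL-MDM against MDM. Only 1880 of the regions (28.7%) passed the filter on low counts, 631 of the MG 2-high and 1249 of the others, so the counts that follow say nothing of the regions that did not pass. The filter asked for enough counts in any 3 of the 12 libraries, and the members that passed had a median mean MG level of 4.78 CPM against 2.22 CPM in those that did not. Many thus entered through MG, the group where they are high, and the counts over them are a description. The absence of a call in both groups is part of how the regions were chosen. A region can stay uncalled at a higher level in a shallow group than in a deep one, LL-MG was the shallowest of the 4 groups and MDM the deepest, and the part of depth in these 2 comparisons was not tested.

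Between the lipid-laden groups, most of the members that were called were higher in LL-MG. As the filter and the missing calls enter here, the shares are set beside those of all regions for description only. Of the 1880, 494 (26.3%) were called higher in LL-MG than in LL-MDM and 8 (0.426%) lower, where over all 77737 tested regions 10.3% were called higher and 11.2% lower (edgeR quasi-likelihood test, adjusted p under 0.05). The median log2 fold change was 0.70, against -0.03 over all regions. It was 1.01 in the members that were not MG 2-high, of which 461 of 1249 were called higher, and 0.03 in the MG 2-high, of which 33 of 631 were. Regions called in both groups without lipid only gave 4.77% higher and 3.91% lower, and those called in both microglia groups only 83.2% higher. Without LL-MDM 2, the deepest library of its group, 219 members were called, and without MG 1 in the shared fit 815 were. In both fits more members were tested than the 1880, and a smaller share of those tested was called. The larger count without MG 1 is thus not a larger share. The calls in the lower direction rose from 8 to 98 without MG 1 and to 25 without MG 2. Leaving out a library also changed which regions passed the filter.

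Npnt, an integrin ligand gene of the extracellular matrix, was nearest to the region with the smallest p (chr3:132869899-132869981). It read 16.7, 24.4 and 15.2 CPM in LL-MG, 2.66, 2.92 and 2.05 in LL-MDM, 17.4, 9.43 and 11.2 in MG and at most 0.163 in MDM. The microglia libraries did not overlap either MDM group, and the log2 fold change was 2.81 ± 0.33 (SE, adjusted p = 1.3e-07). In the Tjp1 region, LL-MDM read 0.886, 3.89 and 4.11 CPM, and LL-MG was higher by a log2 fold change of 2.16 ± 0.29 (SE, adjusted p = 1.2e-06). Cx3cr1, the fractalkine receptor gene of microglia, held a region (chr9:120051748-120051828) at 9.50, 9.40 and 10.9 CPM in LL-MG and 0 to 1.37 CPM in LL-MDM, a log2 fold change of 3.33 ± 0.45 (SE, adjusted p = 1.8e-06). Regions in Magi1, a junctional scaffold gene, and Klf12, a transcription repressor gene, were higher by 3.45 ± 0.44 and 2.69 ± 0.35 on the log2 scale (SE).

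The 5 named regions that were lower in LL-MG lay in Zpbp2, Pxn, Zfp786, St7 and Spatc1, with log2 fold changes from -1.27 to -3.18. In Pxn, the paxillin gene of focal adhesions (chr5:115543498-115543684), LL-MG read 5.88, 3.76 and 4.72 CPM and LL-MDM 12.4, 12.1 and 10.3 CPM, and the groups did not overlap (log2 fold change -1.27 ± 0.34 SE, adjusted p = 0.0068). MG read 5.93, 18.01 and 9.76 CPM there. In all 5, MG 2 was the highest MG library. The Pxn call was lost without LL-MG 2 (adjusted p = 0.051) and without LL-MDM 2 (adjusted p = 0.06), and those of Zfp786, St7 and Spatc1 were each lost without LL-MDM 2 and also without LL-MG 2 or LL-MG 3, while that of Zpbp2 held without any 1 library of either group. With the groups taken from the titles, 0 members were called in this comparison and 10 had an unadjusted p under 0.05.

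Between lipid-laden and other MDM, 499 of the 1880 (26.5%) were called higher in LL-MDM and 4 (0.213%) lower, where 15.4% of all tested regions were called higher and 14.1% lower. The median log2 fold change was 0.83, against 0.01 over all regions. It was 0.90 in the members that were not MG 2-high (434 of 1249 called higher) and 0.65 in the MG 2-high (65 of 631). Regions called in both groups without lipid only gave 3.59% higher and 14.7% lower. Those called in both microglia groups only gave 60.6% higher and those called in LL-MG only 43.5%, both above the members. The comparison shares the LL-MDM libraries with the first one. The count was 125 without LL-MDM 2, 281 without MDM 1, 289 without MDM 2 and 988 without MG 1. In each of these fits more members were tested than the 1880, and a smaller share of those tested was called. The calls in the lower direction rose from 4 to 44 without MG 1 and to 15 without MG 2.

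Bhlhe41, a transcription repressor gene active in microglia, had the region with the smallest p, 317 bp from the gene (chr6:145865737-145865817). It read 6.20, 9.04 and 5.82 CPM in LL-MDM, with 0.761 to 1.37 CPM in MDM, a log2 fold change of 2.98 ± 0.32 (SE, adjusted p = 3.2e-08). MG, at 12.6, 7.20 and 10.0 CPM, and LL-MG, at 9.05, 12.7 and 8.35 CPM, lay mostly above LL-MDM, with overlap at MG 2 and LL-MG 3. The Npnt region was also higher in LL-MDM, by 4.39 ± 0.57 on the log2 scale (SE, adjusted p = 5.9e-07). Wwp2, a ubiquitin ligase gene, held a region (chr8:107556468-107556596) at 2.66, 3.89 and 3.08 CPM in LL-MDM and at most 0.163 CPM in MDM (log2 fold change 4.52 ± 0.54 SE, adjusted p = 1.5e-07), with 7.78, 4.46 and 3.66 CPM in MG. Regions in Ccdc93, of the endosomal sorting machinery, and Rab37, a secretory GTPase gene, were higher by 2.50 ± 0.34 and 2.67 ± 0.36 (SE).

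All 4 regions that were lower in LL-MDM were highest in MG 2 among the MG libraries. They were nearest Fos, an immediate early gene 47.9 kb away, and in Cldn1, a claudin gene, Ifitm2, an interferon-induced gene, and Snx29, with log2 fold changes from -1.27 to -1.59. The Fos region read 1.77, 1.39 and 1.71 CPM in LL-MDM, 3.59 to 4.79 in MDM and 1.11, 8.92 and 6.34 in MG (log2 fold change -1.43 ± 0.47 SE, adjusted p = 0.023). LL-MG read at most 2.35 CPM in any of the 4. The Fos call was lost with DESeq2 (adjusted p = 0.063) and without LL-MDM 2 (0.23), LL-MDM 3, MDM 1 or MDM 3. Those of Cldn1, Ifitm2 and Snx29 were each lost without 1 library in at least 5 of 6 cases.

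**Figure D5:**
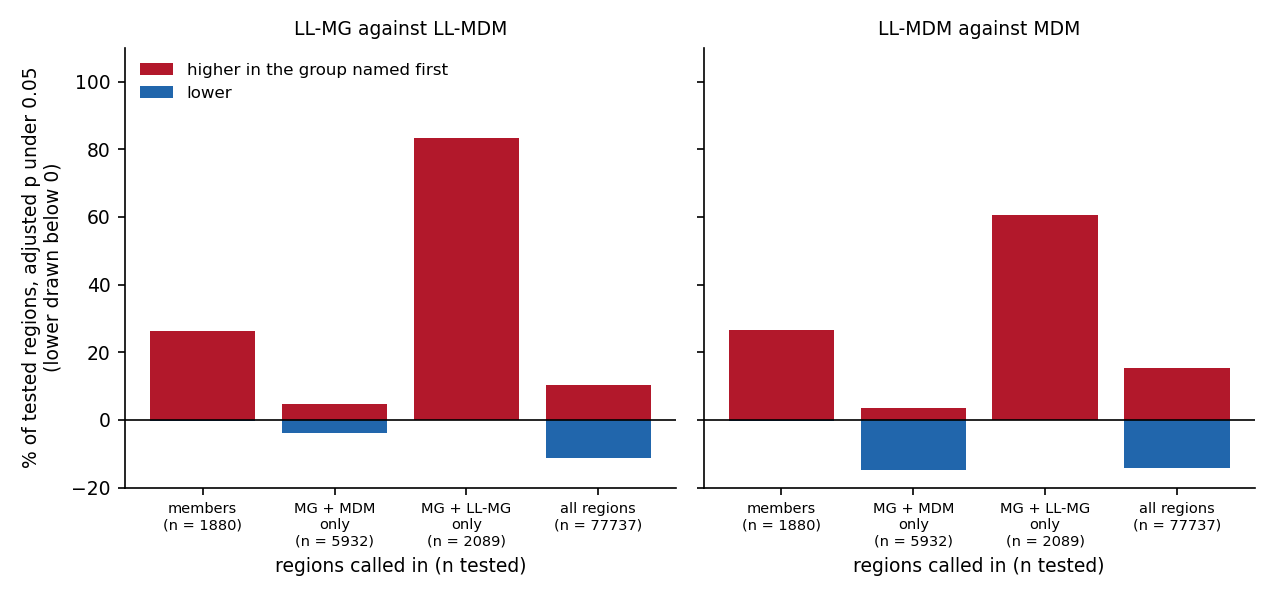
Percent of tested regions (y axis) called higher (above 0) or lower (drawn below 0) at an adjusted p under 0.05, in LL-MG against LL-MDM (left) and LL-MDM against MDM (right), for the members, regions called in MG and MDM only, regions called in MG and LL-MG only, and all regions. The members show 26.3% and 26.5% higher with under 0.5% lower when all libraries enter the fit, and all regions 10.3% and 15.4% higher with 11.2% and 14.1% lower.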

How the data were processed

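Nuclei of sorted cells were tagmented with Tn5, per the labels' protocols. The submitters' processing notes name the build mm10 and, with no stated role, deepTools 3.5.1, Picard 2.12.0, SAMtools 1.10 and BWA 0.7.17-r1188. A peak caller, treatment of duplicates or Tn5 shift was not given in the sources used here. Counts were used as deposited by the authors, whole numbers for 12 libraries in 117835 regions with coordinates.

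The members and gene lists were chosen with earlier results of these data known. Libraries were grouped by description. CPM used TMM-scaled totals and log2 CPM a prior count of 2. Regions were tested with edgeR 4.0.16 (R 4.3.3): filterByExpr left 77737 regions, and glmQLFit in robust mode, then glmQLFTest, were run on 1 model of all 4 groups, with Benjamini-Hochberg adjustment over all tested regions and a threshold of 0.05. SE is the log2 fold change over the root of its F value. The test was tried on simulated counts. Depths were 1162969 to 18938222 counts, and repeated PCR copies of a fragment may be among them.

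Members named were the 10 highest by their lowest MG library (at least 10 counts in each), 3 per MG library by excess over the other 2 MG libraries (at least 20 counts), up to 5 per test and direction (log2 change of at least 1), the 10 genes with most members and up to 3 per list, of which some are given by count. Nearest genes, spans and promoter windows come from RefSeq (GRCm38.p6), without windows on 1 chromosome that is not reported here. Sequences of distal regions were not used here. Alternatives were RLE (size factors of DESeq2) or total-count scaling, no filter, DESeq2 1.42.0, title groups, thinning, another prior count, a block on library number, and leaving out libraries.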

Additional observations from a re-analysis of the deposited data

How the results depend on the processing

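The 31 results were recomputed under alternatives, 353 values in all. Of these, 245 stayed close to the reported value or kept its call, 49 counts or levels moved further, 48 fold changes lost their call and 11 changed direction. The share of MG counts in the member regions was 1.95% to 2.99% when 1 MG library was left out and 0.63% with groups by titles. The median log2 difference of MG from the other groups was 1.76 with a prior count of 0.5, 0.58 after thinning to the smallest total and 1.15 to 1.55 without 1 MG library. The shares of regions highest in MG 2, MG 1 and MG 3 were 55.4%, 27.3% and 17.3% with total-count scaling and 43.5%, 18.1% and 26.7% after thinning, where ties were left out.

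Members called in LL-MG against LL-MDM were 502 as reported, 749 with no filter, 360 with DESeq2 and 219 to 815 when 1 library was left out. They were 0 with groups by titles (10 at an unadjusted p under 0.05) and 0 after thinning (14 of 159 tested). In LL-MDM against MDM they were 503 as reported, 813 with no filter, 359 with DESeq2, 695 by titles, 125 to 988 when 1 library was left out and 0 after thinning (17 at an unadjusted p under 0.05). Leaving out a library also changed which regions passed the filter. The lowest counts were without LL-MDM 2 and the highest without MG 1. In both of these fits, and with no filter (6556 tested), more members were tested than the 1880 as reported. A smaller share of those tested was called in each, so the higher counts are not higher shares.

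Grouping by titles turned the log2 fold change of LL-MG against LL-MDM to -0.36 at Npnt, -0.22 at Klf12, -0.14 at Tjp1 and -0.079 at Cx3cr1, and to 0.086 at Zpbp2, 0.58 at Pxn, 0.49 at Zfp786, 0.24 at St7 and 0.42 at Spatc1. In LL-MDM against MDM it turned Cldn1 to 1.97 and Snx29 to 1.25. None of the 11 passed the threshold. The library numbers run in 3 sets of 4 with 1 library of each group, and no label says that a set shares a mouse or a day. Deviations from the group means correlated at -0.062 to 0.101 in the 18 pairs of a set and at -0.096 to 0.070 in other pairs. With the set as a replicate block, chosen after the data were seen, 465 and 495 members were called, and all 19 named calls held. Keeping only members with a consensus identifier could not be computed, as 0 carry one. At 1 to 4 counts in the median region of the shallower libraries, single-region differences between them were mostly not detectable.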
